A study of Mus musculus with 10 samples.

Results

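The interferon regulatory factors (IRFs) were examined in granulocyte-macrophage progenitors (GMPs), the bone marrow cells that give rise to monocytes and neutrophils. The members were taken by gene symbol as Irf1, Irf2, Irf3, Irf4, Irf5, Irf7, Irf8 and Irf9, and all 8 were found among the 51717 genes obtained by summing transcripts. In GRCm38 the genes described most closely lie at chr8:120736358-120756694 on the plus strand (Irf8), chr7:44997648-45002848 on the plus strand (Irf3), chr11:53770014-53778374 on the plus strand (Irf1) and chr7:141262706-141266481 on the minus strand (Irf7). RNA-seq had been performed on 5 WT and 5 recent Mpc2 KO samples. Mpc2 encodes a subunit of the mitochondrial pyruvate carrier, which admits pyruvate to the mitochondrial matrix. WT cells were ROSA26 CreER+/- and recent KO cells were Mpc2fl/fl; ROSA26 CreER+/-, so both carried the tamoxifen-inducible Cre. This Cre is driven from the ubiquitous ROSA26 locus and is not restricted to a blood lineage. In both groups the donor cells were CD45.2+, from strain C57Bl6/N and male, and were sorted as GMPs from chimeras made by transplanting donor marrow into irradiated CD45.1 hosts. The study made its Mpc2 chimeras mainly as mixed ones, with WT CD45.1 marrow added to the graft, and its RNA-seq methods do not say whether full chimeras were also used. All chimeras ate tamoxifen chow for 2 wk and were then analysed, and no age is given in the labels. A WT sample came from 1 mouse, whereas a recent KO sample was pooled from a pair of mice, so pooling and genotype cannot be told apart.

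IRFs share a DNA-binding domain that recognises GAAA repeats, the core of the interferon-stimulated response element (ISRE). IRF3 and IRF7 are switched on by phosphorylation downstream of nucleic acid sensors and induce interferon genes, IRF9 is the DNA-binding part of the complex that carries the type I interferon signal to the nucleus, and IRF1 and IRF2 act at related sites as activator and antagonist. IRF8, together with PU.1, is best known in GMPs as a factor that favours monocyte and dendritic cell output over neutrophils, and IRF4 and IRF5 are known mainly from lymphoid cells and from mature myeloid cells.

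The promoters of 4 members are shown because 2 kinds of site link the family to its own signals: the ISRE core (a pair of GAAA repeats separated by any 2 bases), bound by IRFs, and the gamma-activated site or GAS (TTCNNNGAA), bound by STAT dimers. A composite site for an ETS factor such as PU.1 beside an IRF (GGAA and GAAA separated by any 2 bases) was searched as well. Each line gives the 250 bases upstream of a RefSeq start in GRCm38.p6, 5′ to 3′ on the strand of the gene, with matches to these letters on either strand in capitals. The windows are chr8:120736108-120736357 on the plus strand for Irf8, chr11:53769764-53770013 on the plus strand for Irf1, chr8:46739495-46739744 on the plus strand for Irf2 and chr7:141266425-141266674 on the minus strand for Irf7.
Irf8: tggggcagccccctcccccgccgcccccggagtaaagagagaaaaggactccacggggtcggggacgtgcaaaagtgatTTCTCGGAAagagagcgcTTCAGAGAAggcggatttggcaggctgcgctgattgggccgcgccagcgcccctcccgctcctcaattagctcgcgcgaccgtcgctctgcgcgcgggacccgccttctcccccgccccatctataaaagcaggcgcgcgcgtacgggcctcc
Irf1: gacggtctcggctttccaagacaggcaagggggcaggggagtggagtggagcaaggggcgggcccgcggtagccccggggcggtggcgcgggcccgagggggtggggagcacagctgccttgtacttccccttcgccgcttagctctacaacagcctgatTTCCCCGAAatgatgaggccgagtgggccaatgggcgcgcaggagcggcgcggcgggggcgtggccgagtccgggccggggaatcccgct
Irf2: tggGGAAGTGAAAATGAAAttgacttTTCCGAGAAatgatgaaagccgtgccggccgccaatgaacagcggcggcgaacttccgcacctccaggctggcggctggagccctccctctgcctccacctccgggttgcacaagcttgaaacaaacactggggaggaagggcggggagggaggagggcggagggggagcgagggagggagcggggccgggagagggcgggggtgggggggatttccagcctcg
Irf7: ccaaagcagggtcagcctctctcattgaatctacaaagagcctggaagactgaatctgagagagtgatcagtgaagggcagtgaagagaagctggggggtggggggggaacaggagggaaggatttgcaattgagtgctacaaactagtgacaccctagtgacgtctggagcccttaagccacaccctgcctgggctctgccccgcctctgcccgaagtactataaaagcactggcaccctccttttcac

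The printed Irf8 window held 2 GAS matches, TTCTCGGAA and TTCAGAGAA, which began at positions -171 and -153 from the start. The printed Irf1 window held a single GAS match, TTCCCCGAA, at positions -90 to -82. RefSeq gives a further start for each of these genes, with windows at chr8:120738389-120738638 (Irf8) and chr11:53770223-53770472 (Irf1), and neither held a match. Irf2 was the only member with matches to all 3 patterns: an ISRE core (GAAAATGAAA), a composite site (GGAAGTGAAA) that overlaps it, and a GAS (TTCCGAGAA). No match to these letters was found in the windows of Irf3, Irf4, Irf5, Irf7 and Irf9, which says nothing of sites elsewhere. Among 32851 upstream windows of 250 bases from all genes, 2.98% held the ISRE core, 7.02% the GAS and 2.30% the composite pattern. A match describes the letters and is not evidence of binding.

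In WT GMPs, Irf8 and Irf3 were the most abundant members, followed by Irf1. On the TPM scale, which divides reads by transcript length and so allows genes to be compared, Irf8 was at 59.5, 43.5, 51.5, 35.9 and 52.5 TPM in WT replicates 1 to 5, a mean of 48.6 ± 9.10 TPM (SD, n = 5). Irf3 was at 53.8, 44.4, 44.2, 47.9 and 47.5 TPM, a mean of 47.5 ± 3.88 TPM (SD, n = 5). The ranges of these genes overlapped, Irf8 exceeded Irf3 in 3 of 5 samples, and their levels could not be separated (ratio 1.01, exact sign-flip permutation p = 1, two-sided, n = 5).

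Irf1 had a mean level of 20.7 ± 2.05 TPM (SD, n = 5), below Irf3 in 5 of 5 WT samples and by a ratio of 2.30 with no overlap of ranges. Irf9, at 8.32 ± 1.97 TPM (SD, n = 5), was below Irf1 in 5 of 5 samples, again with no overlap. With 5 samples the two-sided sign-flip permutation test cannot go below p = 0.063, which both gaps reached. Over all 10 samples, both gaps held in 10 of 10 samples (exact permutation p = 0.00195, the smallest 10 samples allow, and 0.00586 after adjustment over the 6 neighbour pairs).

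Irf2, at 6.78 ± 1.64 TPM, Irf7, at 5.14 ± 2.49 TPM, and Irf5, at 2.88 ± 0.938 TPM (SD, n = 5 each), filled the low end of the detected members. Each overlapped its neighbour in range, and the order Irf9, Irf2, Irf7, Irf5 held pair by pair in 4 of 5 WT samples. Of these pairs, only Irf7 over Irf5 passed over all 10 samples (8 of 10 in this order, exact permutation adjusted p = 0.0195). Irf4 was effectively undetected: 2 reads in WT replicate 3 and 0 in the other 9 samples, at or under the 3 counts taken as a floor (0.153 to 0.215 CPM, reads scaled to library size), so no fold was computed. Summed over the 8 genes, Irf8 made up 34.5% ± 2.90 (SD, n = 5) of family TPM and Irf3 34.3% ± 3.84 (SD, n = 5). The family total was 140 ± 17.8 TPM in WT and 130 ± 19.6 TPM in recent KO samples (SD, n = 5 each).

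**Figure D1:**
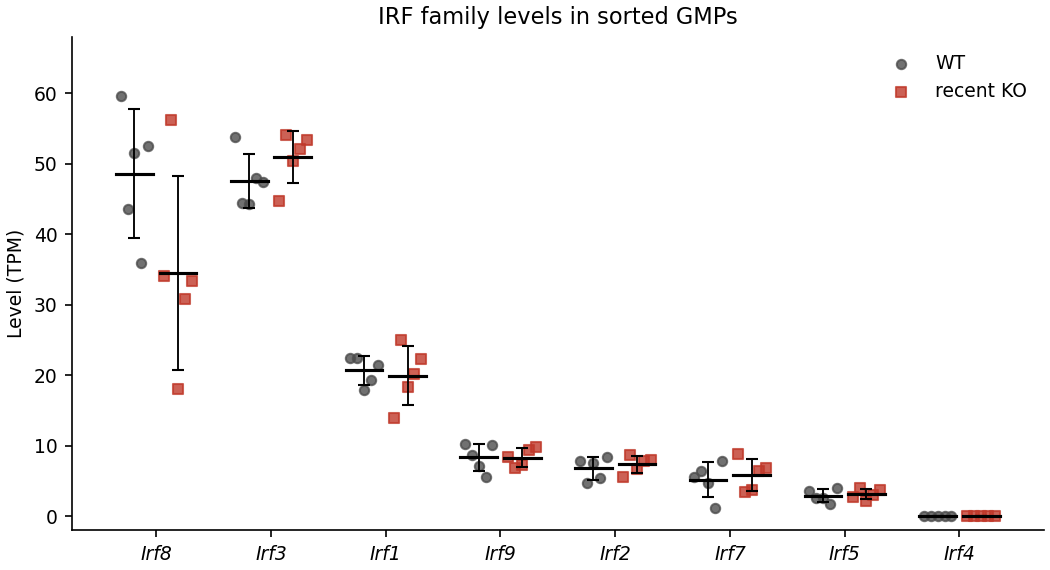
Levels of the 8 IRF genes in TPM (y axis) in WT (grey circles) and recent KO (red squares) samples, ordered by WT mean; each point is a sample, and bars give mean ± SD of 5. Irf8 and Irf3 lie together at the top with 48.6 and 47.5 TPM in WT, Irf1 stands apart at 20.7 TPM, and Irf4 is at 0 in 9 of 10 samples.

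Where a member is placed on the TPM scale depends on which transcripts the reads were assigned to. Irf1 was carried almost wholly by Irf1-202, with 92.3% ± 4.81 of gene TPM (SD, n = 5 WT), and Irf8 by Irf8-201, with 74.9% ± 4.40. In contrast, Irf3 was spread over Irf3-202 (40.4% ± 2.36), the retained-intron transcript Irf3-207 (18.0% ± 3.00) and Irf3-201 (10.4% to 15.9%), and 66.2% ± 4.93 of its TPM came from protein-coding transcripts. Restricted to protein-coding transcripts, the log2 ratio of Irf8 over Irf3 in WT moved from 0.01 ± 0.26 to 0.50 ± 0.27 (SD, n = 5), with an exact sign-flip permutation p of 0.063, the smallest possible.

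Short transcripts also raised TPM without raising reads. Irf2-201 held 46.6% of Irf2 TPM but 85.3% of its estimated reads in WT. Irf5 was divided between Irf5-201, at 19.0% to 65.0% of gene TPM in WT and 6.47% to 39.3% in recent KO, and Irf5-202, at 35.0% to 81.0% and 46.2% to 93.5%, shares that overlapped between groups. Across the 24 transcripts with at least 5% of a member's TPM, 0 had an unadjusted p under 0.05 between groups (two-sided exact permutation test). The smallest p that 5 against 5 samples can give is 0.00794, or 0.19 after adjustment for a single share, so an isolated change could not have passed.

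Mpc2, the deleted gene, was lower in every recent KO sample than in any WT sample. It was at 60.9 to 117 CPM in WT and at 17.1 to 43.9 CPM in recent KO samples, a log2 fold change of -1.46 (edgeR, adjusted p = 0.0156). These counts span the whole gene and not the deleted exon alone. Libraries held 14033776 to 19745405 estimated reads.

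Against this background, Irf8 was the member with the largest difference between groups, and it did not pass adjustment. Irf8 was at 158, 120.0, 148, 116 and 140.3 CPM in WT replicates 1 to 5, and at 105, 137, 53.6, 82.4 and 89.1 CPM in recent KO replicates 1 to 5. Thus 4 of 5 recent KO samples lay below the lowest WT sample, whereas recent KO replicate 2 lay inside the WT range, so the groups overlapped. The means were 136 ± 17.9 and 93.3 ± 30.6 CPM (SD, n = 5 each), a log2 fold change of -0.55 ± 0.18 (SE), with a 95% interval from -0.91 to -0.19. The edgeR p was 0.0102 and became 0.302 after Benjamini-Hochberg adjustment over 12381 genes, and a two-sided exact permutation test on CPM alone gave p = 0.0317.

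How far Irf8 moved depended on single libraries. Without recent KO replicate 2, all 4 remaining samples lay below the lowest WT sample, and the log2 fold change was -0.73 ± 0.16 (SE, edgeR adjusted p = 0.0563). Without recent KO replicate 3, the sample with the least Irf8, it was -0.40 ± 0.14 (SE, edgeR adjusted p = 0.473). The unadjusted exact permutation p was 0.0635 without recent KO replicate 3 and 0.0556 without WT replicate 1, 3 or 5. Without any other sample it stayed under 0.05, lowest at 0.00794 without recent KO replicate 2. The log2 fold change of Irf8 was also taken under other settings. Under the alternatives tried it remained below 0, and it passed only when genes with low counts were kept (edgeR adjusted p = 0.0157, where 0.738% of 27909 genes passed).

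**Figure D2:**
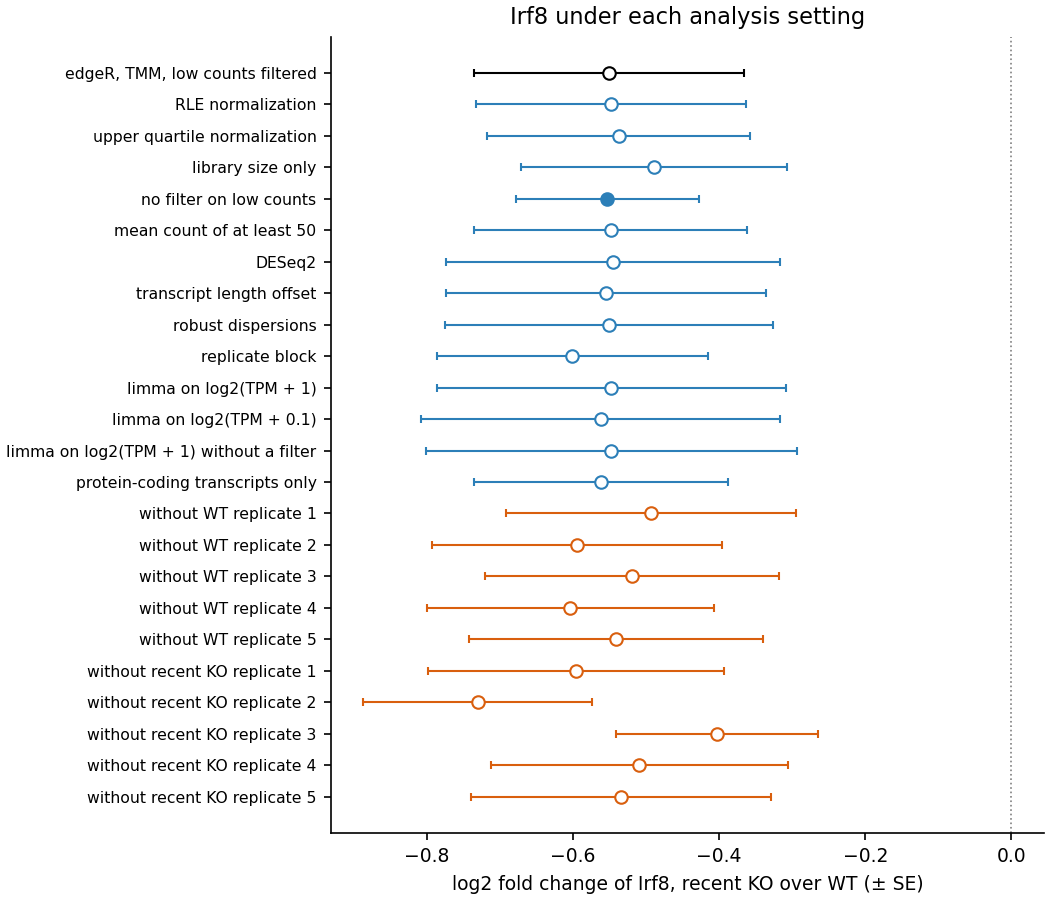
The log2 fold change of Irf8, recent KO over WT (x axis, ± SE), under the reported fit (black), 13 alternative settings (blue) and with each of the 10 samples left out (orange); a filled point has an adjusted p under 0.05. Every estimate is below 0, from -0.73 without recent KO replicate 2 to -0.40 without recent KO replicate 3, and only the setting without a filter on low counts is filled.

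Irf3, activated downstream of cytosolic sensors, had the lowest coefficient of variation of the members in both groups, 4.88% in WT and 5.34% in recent KO samples. It was at 67.5, 63.7, 62.2, 67.9 and 60.9 CPM in WT and at 58.2, 66.2, 62.0, 65.3 and 65.8 CPM in recent KO samples. All but recent KO replicate 1 lay within the WT range, and the log2 fold change was -0.02 ± 0.06 (SE), with a 95% interval from -0.14 to 0.10 (edgeR adjusted p = 0.946). The ratio of Irf8 to Irf3 within a sample is free of library scaling. The log2 TPM ratio of Irf8 over Irf3 was 0.01 ± 0.26 in WT and -0.65 ± 0.56 in recent KO samples (SD, n = 5 each; two-sided exact permutation p = 0.0397). This p is unadjusted and, as Irf3 hardly differed between groups, it is not separate evidence from the Irf8 difference above. Only 1 of 5 recent KO samples, replicate 2, had more Irf8 than Irf3. Irf8 thereby held 25.9% ± 6.85 of family TPM in recent KO samples and Irf3 39.7% ± 4.81 (SD, n = 5 each).

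Irf1, an activator induced by interferon-gamma, was at 49.1, 51.4, 42.2, 47.6 and 48.4 CPM in WT and at 34.7, 54.8, 38.95, 44.9 and 47.4 CPM in recent KO samples. Recent KO replicate 2 was above every WT sample and replicates 1 and 3 were below, and the log2 fold change was -0.11 ± 0.11 (SE, edgeR adjusted p = 0.801). Irf2, its antagonist, ranged from 7.82 to 13.9 CPM in WT and from 8.37 to 12.02 CPM in recent KO samples, a log2 fold change of -0.04 ± 0.14 (SE, edgeR adjusted p = 0.958).

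Irf7, itself an interferon-stimulated gene, was the most variable member. It was at 10.4, 12.4, 10.3, 2.80 and 15.6 CPM in WT and at 20.7, 6.43, 7.38, 12.6 and 13.8 CPM in recent KO samples. The highest and lowest samples lay in different groups and the rest interleaved, with coefficients of variation of 45.7% in WT and 47.2% in recent KO samples. The log2 fold change was 0.23 ± 0.36 (SE, edgeR adjusted p = 0.885), and it was -0.00 when WT replicate 4 was left out and -0.046 when recent KO replicate 1 was, so no direction is given for Irf7.

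Irf9 was at 26.5, 24.1, 20.8, 15.3 and 27.8 CPM in WT and at 24.3, 18.5, 18.3, 23.7 and 25.0 CPM in recent KO samples, all of the latter within the WT range (log2 fold change -0.06 ± 0.15, SE, edgeR adjusted p = 0.929). Irf5, which acts downstream of Toll-like receptors, ranged from 4.59 to 8.80 CPM in WT and from 5.18 to 9.30 CPM in recent KO samples (log2 fold change -0.06 ± 0.19, SE, edgeR adjusted p = 0.954). For Irf2, Irf3, Irf5 and Irf9, the sign of the change turned positive on length-aware TPM scales, so no direction is given for them.

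**Figure D3:**
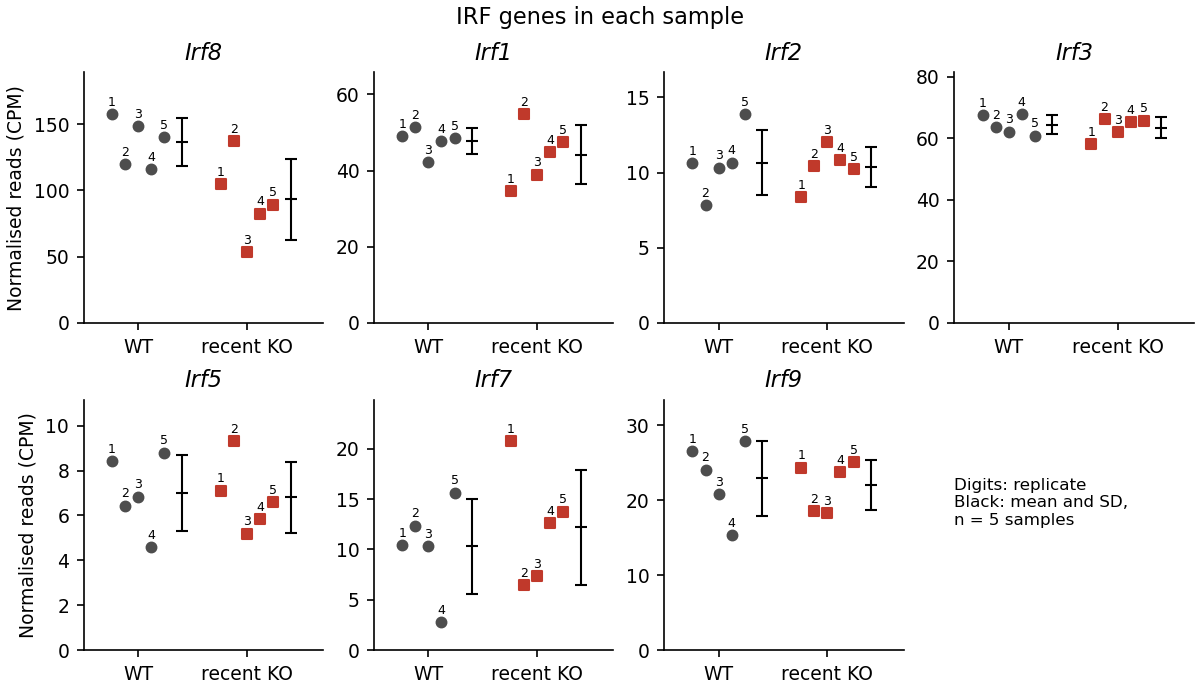
Normalised reads (CPM, y axis from 0) of the 7 detected IRF genes in each WT (grey circles) and recent KO (red squares) sample, with replicate numbers beside the points and mean ± SD of 5 in black. Irf8 has 4 of 5 recent KO samples under the WT minimum of 116 CPM, and the groups overlap for all 7 genes.

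In all, 0 of the 7 tested members passed an adjusted p of 0.05 in edgeR, where 41 of 12381 genes (0.331%) did, and DESeq2 also called 0 of 7, where it called 1.09% of all genes. By direction, the edgeR background was 0.21% lower and 0.121% higher in recent KO samples. At an unadjusted p under 0.05, 1 of 7 passed (Irf8, lower), against 10.2% of all genes, of which 5.35% were lower and 4.89% higher. In 0 of 7 did the groups separate without overlap, against 2.43% of all genes. The median log2 fold change of the 7 was -0.06, and over all genes 50.4% were below 0.

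The genes that act with the family were compared next, in the same edgeR fit, where 0.331% of all genes passed. Interferon ligands were nearly silent: 8 of 9 were at or under the floor in all samples, and none was tested. The exception, Ifnb1, reached 0.416 CPM in its highest WT sample. Of the interferon receptors and JAK-STAT genes, 0 of 11 tested passed in edgeR, and the median log2 fold change was -0.05. At an unadjusted p under 0.05 the count was 0, against 10.2% of all genes. Ifngr1, the ligand-binding chain of the interferon-gamma receptor and the most abundant of them, was at 358 ± 15.3 CPM in WT and at 310 ± 107 CPM in recent KO samples (SD, n = 5 each). Ifnar2, a chain of the type I receptor, was at 110 ± 7.81 and 106 ± 3.87 CPM. Ifngr2, the signalling partner of Ifngr1, was at 31.7 ± 1.99 and 30.5 ± 2.52 CPM. None of the 3 had an unadjusted p under 0.05.

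Among the sensors, adaptors and kinases that activate IRF3, IRF5 and IRF7, 0 of 16 tested passed and the median log2 fold change was -0.07. Unc93b1, the chaperone of endosomal Toll-like receptors, Sting1, the adaptor of cytosolic DNA sensing, and Myd88, the Toll-like receptor adaptor, were the most abundant by TPM, with log2 fold changes of -0.18, -0.00 and -0.11. At an unadjusted p under 0.05, where 5.35% of all genes were lower, 3 of the 16 were lower: Cgas, the DNA sensor (-0.21, edgeR adjusted p = 0.409), Ikbke, a kinase of IRF3 (-0.24, 0.417), and Ifih1, an RNA sensor (-0.36, 0.458), named after their values were seen. The groups did not overlap for Cgas, as for 2.43% of all genes, at 15.9 ± 0.727 CPM in WT and at 13.8 ± 0.939 CPM in recent KO samples (SD, n = 5 each).

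Of the IRF partners and corepressors, 0 of 9 tested passed, where 0.331% of all genes did, and the median log2 fold change was -0.03. At an unadjusted p under 0.05, 2 of the 9 were lower, Spi1 and Irf2bp2, against 5.35% of all genes. For both, 4 of 5 recent KO samples lay below the lowest WT sample. Spi1, which encodes PU.1, the ETS partner of IRF8, was at 369 ± 36.6 CPM in WT and at 311 ± 26.3 CPM in recent KO samples (SD, n = 5 each), a log2 fold change of -0.25 ± 0.08 (SE, edgeR adjusted p = 0.27). Irf2bp2, a corepressor of IRF2, had a log2 fold change of -0.21 ± 0.07 (SE, edgeR adjusted p = 0.276). Batf, an AP-1 family partner of IRF4 and IRF8, had a log2 fold change of -0.03 (edgeR adjusted p = 0.945).

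No target gene of the interferon pathway passed, where 0.331% of all genes did, a share at which 0 calls in lists this short says little. Of the interferon-stimulated genes, 0 of 23 tested passed and the median log2 fold change was -0.06. Of the IRF1 and interferon-gamma target genes, 0 of 17 passed and the median was 0.01. Ifitm3, a restriction factor, Bst2, or tetherin, and Ifi35 led the former list by TPM, with log2 fold changes of 0.19, -0.14 and 0.00. B2m and H2-D1, of the MHC class I complex, and Psmb8, an immunoproteasome subunit, led the latter, with log2 fold changes of 0.00, -0.12 and 0.08. At an unadjusted p under 0.05, where 5.35% of all genes were lower, 1 gene in each list passed. These were Cmpk2 in the former (-0.61, edgeR adjusted p = 0.214) and Tapbp in the latter (-0.21, edgeR adjusted p = 0.223), both lower and named after their values were seen.

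No fate gene of monocytes or neutrophils passed, where 0.331% of all genes did, and their signs were mixed. Of the monocyte fate genes, 0 of 14 tested passed in edgeR, 12 had a log2 fold change below 0 and the median was -0.32, with 7 lower and 1 higher (Fcgr1, 0.82, named after its value was seen) at an unadjusted p under 0.05, against 5.35% lower and 4.89% higher over all genes. The most abundant were Ly6c2, the Ly6C surface antigen (-0.57 ± 0.31, SE, edgeR adjusted p = 0.573), Cst3, cystatin C (-0.14 ± 0.07, 0.516), and Ms4a6c (-0.34 ± 0.11, 0.291). Of the neutrophil fate genes, 0 of 15 tested passed, 11 were below 0 and the median was -0.31, with 8 lower and 4 higher at an unadjusted p under 0.05, against the same shares of all genes. The primary granule genes Elane, Mpo and Ctsg led this list, with log2 fold changes of -0.63, -0.52 and -0.38 (edgeR adjusted p of 0.36, 0.272 and 0.389). The 4 higher ones, named after their values were seen, were Ltf (1.84), Ngp (1.53) and Camp (1.53), which encode secondary granule proteins, and S100a9 (1.03), with edgeR adjusted p of 0.273, 0.361, 0.397 and 0.425. Ltf, Ngp and Camp are also in the mature neutrophil list. Hence lists of both fates had a negative median, while that of all genes was -0.00. In bulk samples, fewer cells of a type and less RNA per cell cannot be told apart.

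Summed levels of marker genes differed between samples as well. The GMP marker sum was 62290 to 81082 TPM in WT and 36303 to 67366 TPM in recent KO samples. In WT it was highest in replicate 4, the WT sample with the least Irf8. In edgeR 0 of 9 genes were called, where 0.331% of all genes were, so 0 calls says little. The median change was -0.38 on the log2 scale. Of this sum, 98.9% to 99.4% came from Elane, Mpo, Ctsg and Prtn3, which are in the neutrophil fate list too. Among the other 5 GMP markers, Cd34, Cd27 and Kit had log2 fold changes of 0.25, 0.22 and 0.08, and Fcgr3 and Fcgr2b of -0.65 and -0.18, none of them called in edgeR. Fcgr3 had an edgeR adjusted p of 0.107, and its groups did not overlap, as for 2.43% of all genes. At an unadjusted p under 0.05, 6 of the 9 GMP markers were lower and 0 higher, against 5.35% and 4.89% of all genes. The 6 were Elane, Mpo, Ctsg, Prtn3, Fcgr3 and Fcgr2b. Recent KO replicate 3, lowest in Irf8, had the lowest GMP sum and the highest erythroid and megakaryocyte sum, at 294 TPM. Replicates 4 and 5 followed, with erythroid and megakaryocyte sums of 216 and 194 TPM, against 20.9 to 65.0 TPM in WT and 51.3 and 54.1 TPM in recent KO replicates 1 and 2. The mature neutrophil sum was 20.5 to 80.8 TPM in WT and 27.5 to 298 TPM in recent KO samples, highest in replicate 2, which had the most Irf8 of its group. The part of these markers in the Irf8 values was not tested.

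The macrophage list was the only marker list with calls: 3 of 8 genes, C1qa, C1qb and C1qc, rose (edgeR adjusted p of 0.0406, 0.016 and 0.0383), where 0.121% of all genes rose. Its other genes were not called. Cd5l, Mrc1 and Vcam1 had log2 fold changes of 1.63, 1.23 and 0.18, and Adgre1 and Siglec1 of -0.39 and -0.17. Cd5l had an edgeR adjusted p of 0.0544, and its groups did not overlap, as for 2.43% of all genes. The sum of the list was 9.70 to 20.4 TPM in WT and 24.2 to 46.2 TPM in recent KO samples. C1qa, C1qb and C1qc were the largest part of it, with means of 2.51, 3.89 and 2.97 TPM in WT and 6.22, 10.3 and 9.28 TPM in recent KO samples. In edgeR, where 0.331% of all genes passed, 0 of 8 erythroid and megakaryocyte genes (median log2 fold change 1.14), 0 of 7 mature neutrophil genes (1.53), 0 of 7 dendritic genes (0.43) and 0 of 6 stem and multipotent genes (0.29) were called. At an unadjusted p under 0.05 the counts higher were 5, 5, 3 and 2, against 4.89% of all genes. In these lists the groups did not overlap for Pf4 (1.38), Flt3 (0.98) and H2-Eb1 (1.27), named after their values were seen. Their edgeR adjusted p were 0.122, 0.0597 and 0.183. Flt3 and H2-Eb1 are dendritic markers, and of the 7 in that list 6 were above 0 and 1 below. Lymphoid lists gave 0 of 3 tested genes each for B lineage and plasma cells (-0.20) and for T and NK cells (0.22), with Pax5 and Ebf1 at the floor in all samples.

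**Figure D4:**
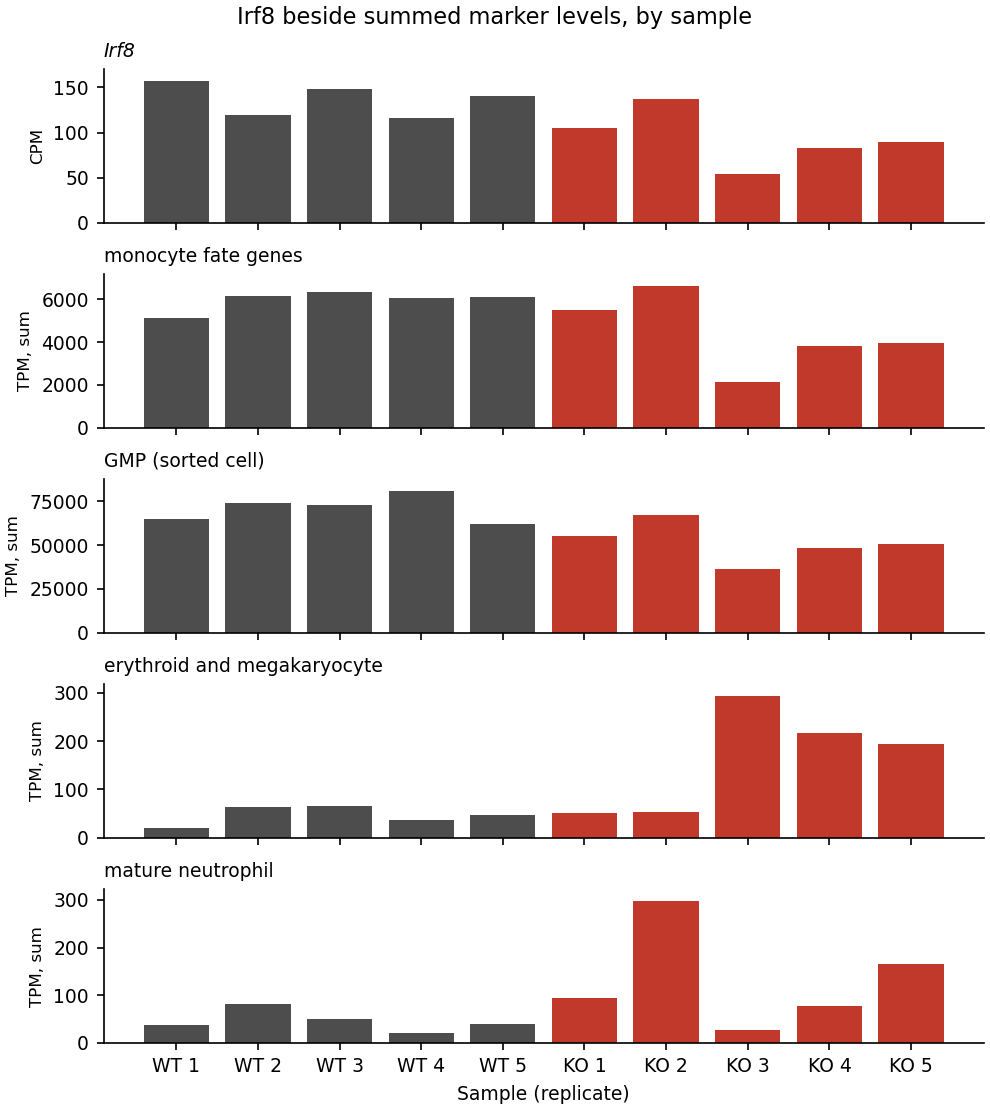
Irf8 (CPM) and the summed TPM of 4 marker lists (y axes from 0) in each WT (grey) and recent KO (red) sample. Recent KO replicates 3, 4 and 5 have the least Irf8, the lowest monocyte and GMP sums and the highest erythroid and megakaryocyte sums, and recent KO replicate 2 has the most mature neutrophil signal at 298 TPM.

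Across samples, the level of Irf7 followed that of the interferon-stimulated genes irrespective of genotype. The score of a list was the mean z-score of its tested genes' log2 CPM, and 4 relations were computed over 10 samples. For Irf7, Pearson's r was 0.88 (permutation p = 0.00058, adjusted p = 0.00232) and Spearman's rho 0.94 (permutation p = 0.0002, adjusted p = 0.0008). Without WT replicate 4 and recent KO replicate 1, the samples farthest from the median, r was 0.95, and for deviations from the group means it was 0.93. WT replicate 4 and recent KO replicates 2 and 3 were lowest in both measures, and without these 3, r was 0.84 over 7 samples (exact permutation p = 0.0196). Irf9, too, went with Irf7 across the 10 samples (r = 0.89), the highest of the 21 pairs of members, and this pair is given as a description.

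By contrast, the relation of Irf8 to the monocyte fate genes rested on few samples. Pearson's r was 0.84 over 10 samples (permutation p = 0.00364, adjusted p = 0.00728), but Spearman's rho was 0.62 (permutation p = 0.0603, adjusted p = 0.121). Without recent KO replicates 3 and 4, r was 0.52 (exact permutation p = 0.19), and without replicates 3, 4 and 5 it was 0.14 (exact permutation p = 0.769). With deviations from the group means, r was 0.70 but rho was 0.28. Within WT, replicate 1 had the most Irf8 and the lowest monocyte score (0.003), and replicate 4 the least Irf8 and the highest score (0.66). Irf8 and the neutrophil fate genes gave an r of 0.64 (permutation p = 0.0519, adjusted p = 0.0692) and a rho of 0.25 (permutation p = 0.495, adjusted p = 0.495), and r was -0.25 without recent KO replicates 3 and 4, so that this relation too rested on those samples. Irf1 and its target list gave an r of 0.33 (permutation p = 0.359, adjusted p = 0.359) and a rho of 0.49 (permutation p = 0.156, adjusted p = 0.208), with an r of 0.13 without recent KO replicates 1 and 3.

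**Figure D5:**
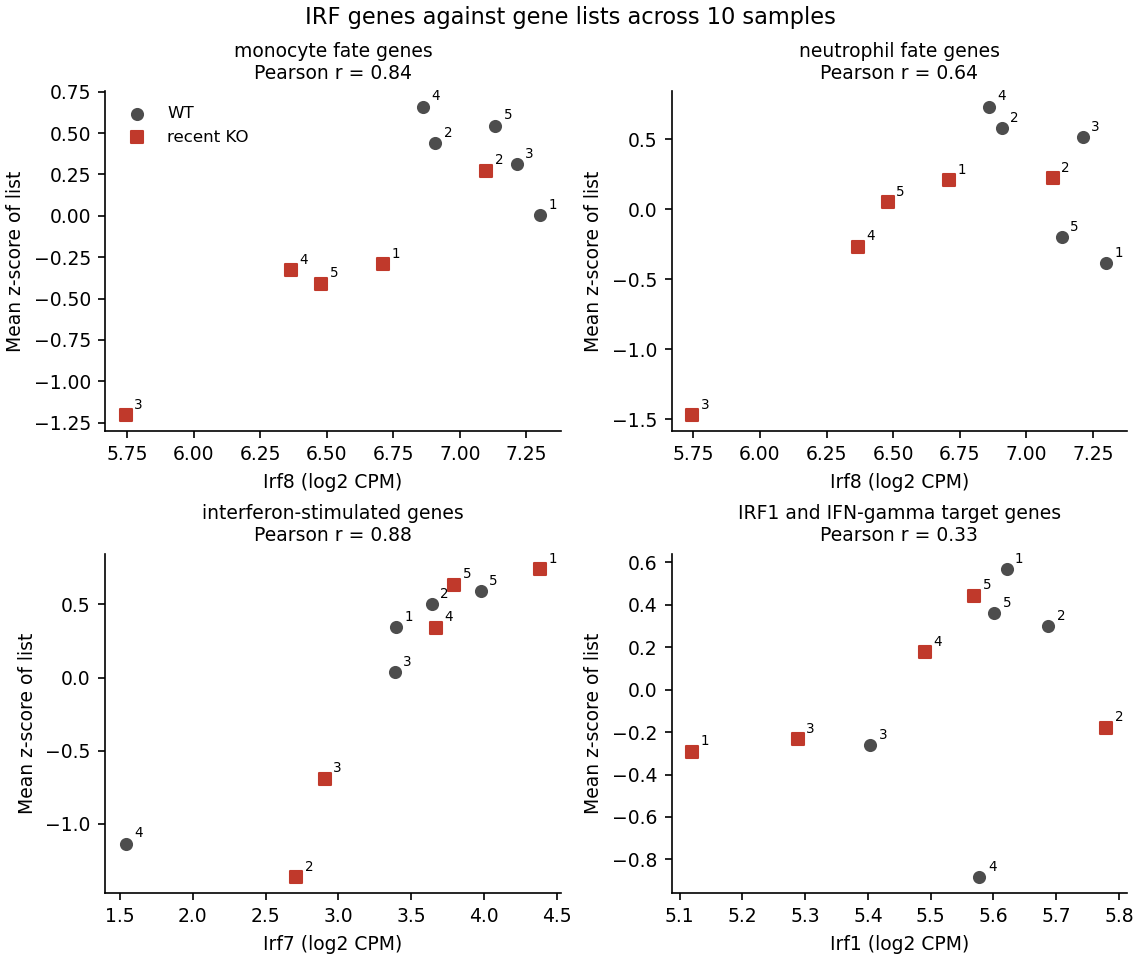
Log2 CPM of an IRF gene (x axis) against the mean z-score of a gene list (y axis) in 5 WT (grey circles) and 5 recent KO (red squares) samples, with replicate numbers beside the points. Irf7 and the interferon-stimulated genes lie along a line with both groups mixed (r = 0.88), whereas for Irf8 the lower left of both upper panels is held by recent KO replicate 3.

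The genes most like Irf8 over the 10 samples, by Pearson's r of log2 CPM, were Nxpe1-ps (0.97), Gapt (0.96), Tcn2 (0.96), Alas1 (0.95) and Ccdc125 (0.95). Each had a log2 fold change below 0, from -0.59 for Nxpe1-ps to -0.33 for Tcn2, and none passed in edgeR (adjusted p of 0.298 and 0.446 for these). They were picked for this likeness, so the values are a description.

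Exons of 5 members overlap another gene in the annotation, which can move reads between them. Irf5 overlaps Tnpo3 on the opposite strand over 411 bases, 14.1% of its exonic length, and Tnpo3 was at 44.3 CPM in WT against 7.01 CPM for Irf5. Irf3 shares 88 bases with Bcl2l12, Irf7 45 bases with Phrf1 and Irf1 135 bases with Gm17334, all on opposite strands, and Irf9 shares 123 bases with Rnf31 on the same strand. The library kit is not stated to keep strand, so reads in these stretches could belong to either gene. No exon overlap was found for Irf8.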

How the data were processed

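GMP RNA was made into libraries with SMARTseq V4. The authors quantified reads with Salmon 1.5.1, per the submitters' processing notes, and deposited a table per sample of estimated counts and TPM per transcript (Gencode M27 transcripts, per the study's methods). A deposited DESeq2 table of fold changes and p-values was not used.

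Here estimated counts and TPM were summed per gene with Gencode M21 names (GRCm38), matching 97.4% of transcripts and leaving 0.348% to 0.390% of reads out, and counts were rounded. The main test was edgeR 4.0.16 (quasi-likelihood, TMM, filterByExpr with a minimum count of 10), recent KO against WT, Benjamini-Hochberg adjusted at 0.05. DESeq2 1.42.0, limma 3.58.1 on log2(TPM + 1) and log2(TPM + 0.1), other scalings and filters, a replicate block and each sample left out were alternatives. The fit was tested on simulated data. Single values were compared by exact permutation, and correlations over 10 samples by 100000 permutations. The 95% intervals are a normal approximation from the SE of the edgeR fit, which includes the spread between samples. With so few samples they are narrower than the edgeR test itself implies. The floor of 3 counts covers counting error only.

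All IRF genes were named. From each other pathway list the named genes were up to 4 that passed and the 3 with the highest WT TPM. For Irf8 the 5 genes most like it were named as well. The members, lists and markers were chosen with earlier results of these data known. Replicates are labelled as biological; no 2 samples were identical.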

Additional observations from a re-analysis of the deposited data

Results flagged for a closer look

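In 90 groups of 5 samples (the 7 tested members, the named genes and the summed lists), 6 held a sample set apart from the other 4 by Dixon's criterion, where chance gives about 4.5. None was an IRF gene. Sting1 was at 89.5 CPM in recent KO replicate 1, against 102 to 107 CPM in the others. Myd88 was at 83.0 CPM in WT replicate 4, the sample lowest in Irf7, against 52.2 to 55.6 CPM. The summed sensors, adaptors and kinases were at 208 TPM in WT replicate 3, against 232 to 238 TPM, and at 289.9 TPM in recent KO replicate 2, against 201 to 217 TPM. The monocyte fate genes summed to 5132 TPM in WT replicate 1, the sample highest in Irf8, against 6052 to 6327 TPM. The stem and multipotent genes summed to 17.3 TPM in WT replicate 3, against 22.2 to 22.6 TPM.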

How the results depend on the processing

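The count of IRF genes called stayed at 0 under 12 of 13 alternatives and with each sample left out, and was 1 (Irf8, log2 fold change -0.55, adjusted p = 0.0157) without a filter on low counts. Genes called over the whole table numbered 41, and 206 without that filter, 156 by DESeq2, 20 with a replicate block, 25 and 24 by limma on log2(TPM + 1) and log2(TPM + 0.1), 13 by limma without a filter, 19 from protein-coding transcripts alone, and 25 to 91 with a sample left out (91 without recent KO replicate 2). Replicate numbers did not pair the samples: correlations of same-numbered deviations were 0.058, -0.155, -0.088, -0.032 and -0.177, and no sample matched its own number best. With the replicate block, Irf8 was at -0.60 (adjusted p = 0.408) and 0 IRF genes were called. With a sample left out, Irf8 ranged from -0.73 to -0.40.

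The sign of small changes turned. Irf2 was at 0.034 by library size, 0.052 with a length offset, 0.12 and 0.13 by limma on log2(TPM + 1), filtered or not, and log2(TPM + 0.1), 0.0066 from protein-coding transcripts, and -0.13 to 0.079 with a sample left out. Irf3 was at 0.051 by library size, 0.036 with the offset, 0.097 and 0.099 by limma, and -0.040 to 0.0073 with a sample left out. Irf5 was at 0.0013, 0.048, 0.093 and 0.13 under the same settings, and -0.19 to 0.037. Irf9 was at 0.012 and 0.015 by limma, and -0.17 to 0.019. Irf7 ranged from -0.046 (without recent KO replicate 1) to 0.42. None passed the test.

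The WT log2 ratio of Irf8 over Irf3 ranged from -0.038 to 0.12 with a sample left out. The Irf8 to monocyte r ranged from 0.71 (without recent KO replicate 3, adjusted p = 0.0745) to 0.90. For the relations, the alternatives of deviations from group means and of leaving out the 3 samples lowest in the IRF gene were chosen after seeing the data: the latter gave r of 0.14 for the monocyte list, -0.54 for the neutrophil list, 0.84 for Irf7 and -0.076 for Irf1. With log2(TPM + 1), r was 0.66 for Irf8 and the neutrophil list (adjusted p = 0.049), which ranged from 0.10 to 0.80 with a sample left out (lowest without recent KO replicate 3), and 0.64 for Irf1 and its targets (adjusted p = 0.049). The Irf1 relation ranged from 0.25 to 0.53 and that of Irf7 from 0.87 to 0.94. No transcript share was called under any of its alternatives, a test in which an isolated change could not pass. The causes of these shifts were not tested. Irf7, at 10.3 CPM in WT, had the widest error of the members, with a 95% interval of its change from -0.49 to 0.94.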
